A study of Oryza sativa with 6 samples.

Results

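Brassinosteroids are plant steroid hormones that promote cell elongation and, in rice, set plant height, leaf angle and grain size. A chain of cytochrome P450 enzymes makes the hormone, the receptor kinase BRI1 perceives it at the cell surface together with its co-receptor BAK1, and the signal switches off the kinase GSK2. GSK2 otherwise phosphorylates and restrains growth-promoting transcription factors such as BZR1 and DLT. Synthesis genes are known to be repressed when signalling is active, which makes the pathway self-limiting.

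Of the 55801 loci listed for each library, 10 were taken by their locus identifiers, namely the synthesis genes D2, BRD1, D11 and DWARF4, the receptor gene BRI1, the co-receptor gene BAK1, the kinase gene GSK2, and the transcription regulators BZR1, DLT and BU1. All 10 were present in the files. The RNA came from rice (Oryza sativa) of the cultivar Nipponbare kept on Chu's medium at 28 °C with days of 12 h light and nights of 12 h. The PM group held 3 libraries of plants collected at the end of the day, 30 min ahead of lights-off, and the AM group held 3 libraries of plants collected at the end of the night, 30 min ahead of lights-on. The labels do not say whether replicates came from separate plants or cultures, and p-values then reflect no more than the spread among these samples, which may be technical in origin.

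The labels describe whole seedlings but also give the organ as panicle. Of 10 floral MADS genes, 4 had at most 1 count over all 6 libraries (MADS6, MADS7, MADS8 and MADS13), and the summed level of the 10 was 4.43 to 5.66 CPM in PM and 6.89 to 9.18 CPM in AM (CPM here are gene counts relative to the library total, scaled with TMM factors). MADS16 was detected in every library, at 0.575 to 2.05 CPM in PM and 4.5 to 6.45 CPM in AM. MADS58 went the other way, at 1.15 to 1.81 CPM in PM and 0.289 to 0.577 CPM in AM. MADS1, MADS2 and MADS4 were also detected in every library, at up to 1.56 CPM. Of 6 root genes, RCc3 and LSI2 were at 0 in all libraries and CASP1 had a single count. The root list summed to 6.01 to 7.2 CPM in PM and 19.7 to 28.9 CPM in AM, most of it from LSI1, a silicon channel gene. The shoot meristem genes OSH1 and OSH15 were at 0 in all 6 libraries. The clock gene LHY, which peaks around dawn, lay at 2.56 to 7.65 CPM in PM and 3800 to 4150 CPM in AM. Library depth ranged over 13 M to 41.7 M gene counts in PM, with replicate 2 the shallowest, and over 22.3 M to 66.7 M in AM, with replicate 2 the deepest.

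GSK2 transcripts were several times more abundant at the end of the day, BRD1 transcripts were also more abundant, and DWARF4 and BRI1 transcripts were somewhat less abundant. D2, D11, BAK1 and BZR1 did not pass the test, and DLT and BU1 were too scarce to be tested. With the edgeR quasi-likelihood test over 20548 loci at a Benjamini-Hochberg adjusted p of 0.05, 2 of the 8 tested members were higher and 2 lower in PM, or 50% of them. Over all tested loci 55.9% were called, 28% higher and 28% lower. The share of members called was thus near that of the whole table. Log2 fold changes (PM over AM) had a median of −0.35 for the 8 tested members and −0.01 for all tested loci, and the median absolute values were 0.62 and 0.85. PM and AM values did not overlap at 4 of the 8 tested members, the same 4 that were called, against 64.1% of all tested loci.

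**Figure D1:**
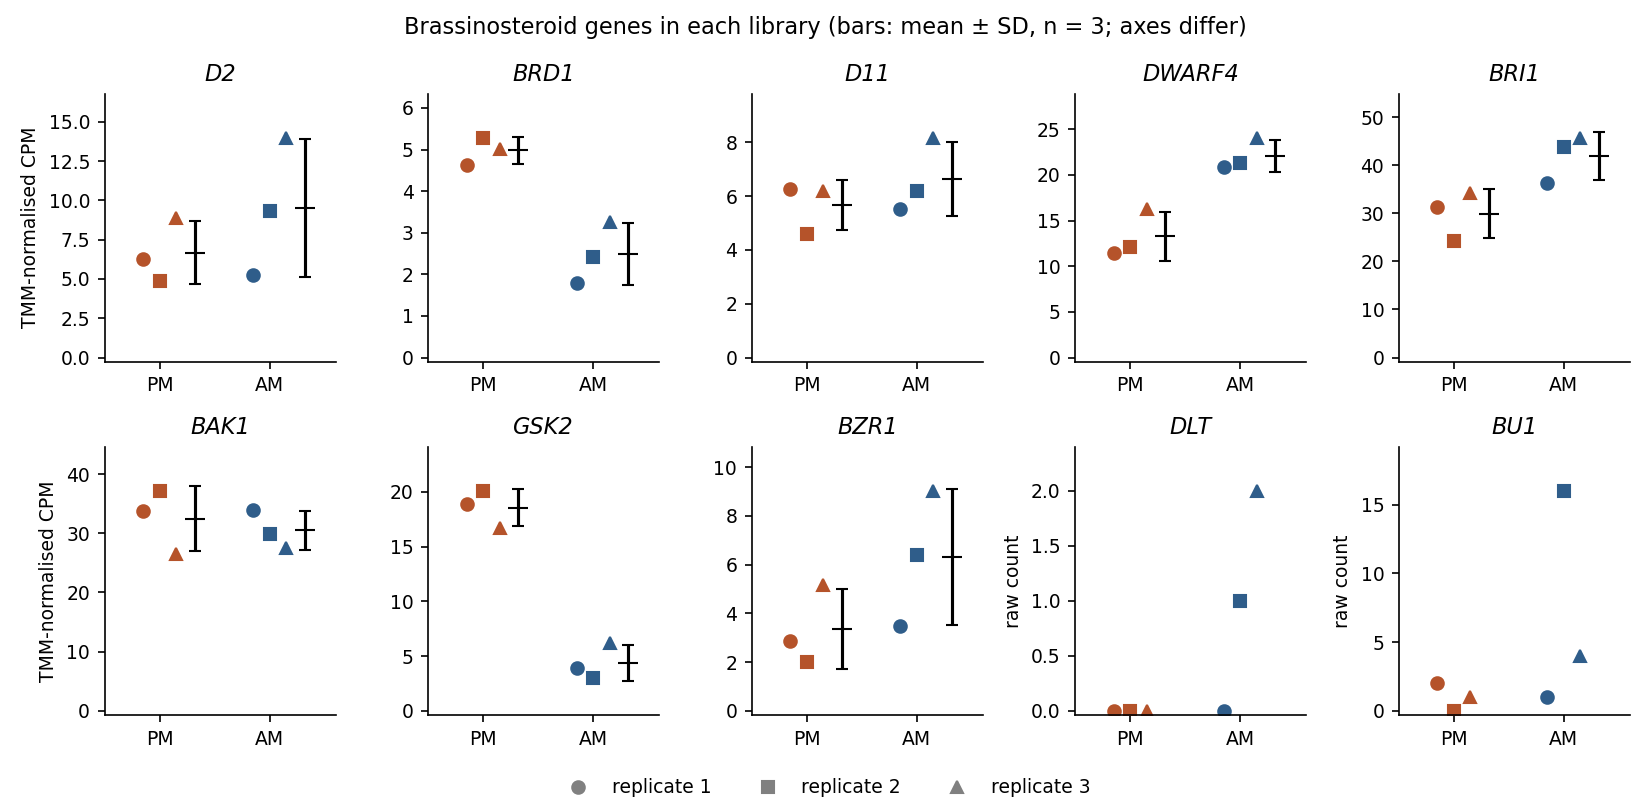
Level of each member in each library, PM left and AM right; the vertical axes are TMM-normalised CPM, or raw counts for DLT and BU1, symbols are replicates and bars are mean ± SD (n = 3). GSK2 and BRD1 lie higher in every PM library than in any AM library, DWARF4 and BRI1 lie lower, and the other 6 overlap.

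All these fold changes are relative to the median locus. When libraries were scaled by their totals only, the median locus stood at log2 0.84, and every tested member moved upwards by about that amount. GSK2 was then at log2 2.91, BRD1 at 1.83 and BAK1 at 0.94, all past the threshold, while DWARF4 stood at 0.10, BRI1 at 0.36, D2 at 0.32 and D11 at 0.61. With that scaling 3 members were higher and 0 lower by edgeR (0 lower also at an unadjusted p of 0.05), against 54.5% and 13.5% of all tested loci (68% in either direction). The statements that GSK2 and BRD1 were higher held with both scalings, whereas DWARF4 and BRI1 were lower only with factors that centre the median locus (TMM, RLE and upper quartile), and with upper-quartile factors BRI1 did not pass (−0.46). In RNA from bulk tissue, fewer cells that express a gene and less RNA per cell cannot be told apart.

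**Figure D2:**
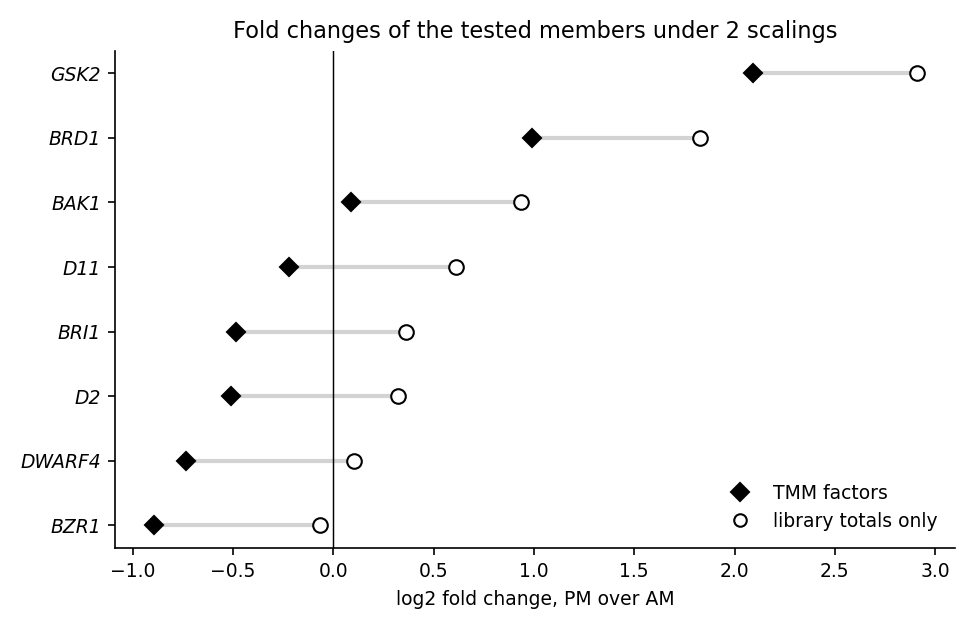
Log2 fold change of PM over AM for the 8 tested members (horizontal axis, genes down the page), with TMM factors (filled diamonds) and with library totals only (open circles). GSK2 and BRD1 lie right of 0 under both, while BRI1, D2, D11 and DWARF4 cross 0.

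The synthesis genes did not move as a block. DWARF4 (LOC_Os03g12660, chromosome 3 by its identifier) encodes a hydroxylase of the steroid side chain that acts early in the pathway. It had 11.4, 12.1 and 16.3 CPM in PM replicates 1 to 3, against 20.9, 21.3 and 24.1 CPM in AM replicates 1 to 3. All 3 PM libraries lay below all 3 AM libraries. The means were 13.3 ± 2.62 CPM in PM and 22.1 ± 1.75 CPM in AM (SD, n = 3 each), a log2 fold change of −0.73 (SE 0.19, edgeR adjusted p = 0.0101), or 1.66-fold lower in PM. The call ended without PM replicate 1, at −0.62 (edgeR adjusted p = 0.0573; 0.00202 to 0.701 over all alternatives). Of the other brassinosteroid genes tested, MADS47, a repressor of brassinosteroid responses, had the profile nearest to that of DWARF4 over the 6 libraries (root mean square difference of 0.14 in centred log2 CPM). With so few libraries, likeness of profile largely follows the difference between PM and AM, here and for the genes below.

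BRD1 (LOC_Os03g40540, chromosome 3) encodes the oxidase of the last steps to castasterone, the main active brassinosteroid of rice. Its levels were 4.63, 5.29 and 5.02 CPM in the PM libraries and 1.79, 2.41 and 3.26 CPM in the AM libraries. The lowest PM library lay above the highest AM library. BRD1 averaged 4.98 ± 0.336 CPM in PM and 2.48 ± 0.738 CPM in AM (SD, n = 3 each), so that it rose by log2 0.99 (SE 0.28, edgeR adjusted p = 0.0162), a 1.99-fold difference. Without AM replicate 2, the deepest library and the middle of the 3 AM levels, the edgeR adjusted p was 0.0536 at log2 0.96 (0.000564 to 0.0536 over all alternatives). The smallest BRD1 count, 31 in AM replicate 1, carries a counting error of 18%, against an observed coefficient of variation of 29.7% between the AM libraries.

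D11 and D2 showed no difference past the threshold. D11 (LOC_Os04g39430, chromosome 4), which encodes a relative of DWARF4 with an overlapping activity, had 6.26, 4.6 and 6.18 CPM in PM, against 5.54, 6.2 and 8.18 CPM in AM. The ranges overlapped, and the log2 fold change was −0.22 with a 95% interval of −0.78 to 0.33 (edgeR adjusted p = 0.461). D2 (LOC_Os01g10040, chromosome 1), for a later side-chain hydroxylase, had 6.26, 4.89 and 8.86 CPM in PM, against 5.25, 9.3 and 14 CPM in AM. Here the replicates of each group were far apart, with a highest over lowest ratio of 1.81 in PM and 2.66 in AM. The log2 fold change was −0.51 with a 95% interval of −1.34 to 0.33 (edgeR adjusted p = 0.267), which includes a fall of more than 2-fold. For D2, leaving out AM replicate 3 gave −0.13.

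BRI1 (LOC_Os01g52050, chromosome 1), the receptor kinase with leucine-rich repeats that binds the hormone, had 31.3, 24.3 and 34.3 CPM in PM and 36.4, 43.8 and 45.8 CPM in AM. The groups did not overlap, but the gap between PM replicate 3 and AM replicate 1 was small. BRI1 averaged 30 ± 5.1 CPM in PM and 42 ± 4.95 CPM in AM (SD, n = 3 each), a log2 fold change of −0.49 (SE 0.18, edgeR adjusted p = 0.0467). This call lay close to the threshold and ended when PM replicate 1 (−0.50), PM replicate 2 (−0.35), AM replicate 2 (−0.45) or AM replicate 3 (−0.42) was left out, with adjusted p-values of 0.0402 to 0.144 over the 6 removals.

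BAK1 (LOC_Os08g07760, chromosome 8), the co-receptor kinase that BRI1 shares with other receptors, was nearly level. It had 33.7, 37.2 and 26.5 CPM in PM, against 34, 29.9 and 27.6 CPM in AM, so the AM values lay within the PM range. Its log2 fold change was 0.09 with a 95% interval of −0.32 to 0.49 (edgeR adjusted p = 0.696). Over the 8 tested members it had the fold change closest to 0, and 93.7% of all tested loci had a larger absolute value.

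GSK2 (LOC_Os05g11730, chromosome 5), the rice counterpart of the Arabidopsis kinase BIN2 and a repressor of brassinosteroid signalling, showed the widest difference of the 8 tested members. It had 531, 350 and 913 raw counts in PM replicates 1 to 3 and 67, 129 and 183 in AM replicates 1 to 3. The AM libraries together held more gene counts, though not after TMM scaling (factors of 1.32 to 1.38 in PM and 0.65 to 0.82 in AM). In CPM the GSK2 levels were 18.9, 20.1 and 16.7 in PM and 3.87, 2.98 and 6.21 in AM. Every PM library was more than 2-fold above every AM library. GSK2 averaged 18.6 ± 1.75 CPM in PM and 4.35 ± 1.67 CPM in AM (SD, n = 3 each), and it rose by log2 2.09 (SE 0.28, edgeR adjusted p = 0.000324), or 4.26-fold. It passed the threshold in each of the 6 fits that left out a library, at log2 1.87 to 2.46. Even so, 18.8% of all tested loci had a larger absolute fold change.

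Of the downstream regulators, BZR1 alone was well detected. BZR1 (LOC_Os07g39220, chromosome 7), the transcription factor that carries the signal to its target genes, had 2.85, 2.01 and 5.17 CPM in PM, against 3.46, 6.41 and 9.03 CPM in AM. PM replicate 3 lay within the AM range. The log2 fold change was −0.90 with a 95% interval of −1.88 to 0.09 (edgeR adjusted p = 0.109). This gene passed the threshold without PM replicate 3 (−1.37, edgeR adjusted p = 0.0331) and without AM replicate 1 (−1.17), and over all alternatives its adjusted p ran from 0.0331 to 0.895. The smallest BZR1 count was 35, in PM replicate 2, the shallowest library.

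DLT and BU1 were at the limit of detection. DLT (LOC_Os06g03710, chromosome 6), a GRAS-family protein that GSK2 phosphorylates, had 0 counts in each PM library and 0, 1 and 2 counts in AM replicates 1 to 3. A count of 0 allows up to 3 counts, which is 0.107, 0.173 and 0.0548 CPM in PM replicates 1 to 3, so no difference was detectable at this depth. BU1 (LOC_Os06g12210, chromosome 6), a helix-loop-helix protein named for its induction by brassinosteroid and active in leaf bending, had 2, 0 and 1 counts in PM and 1, 16 and 4 counts in AM. Summed over libraries these are 3 counts in PM and 21 in AM, a 7.79-fold ratio of AM over PM by TMM-scaled depth, with a 95% exact interval of 2.33 to 40.8. That interval covers counting error only, and AM replicate 2 alone supplied 16 of the 21 counts. With no filter on low counts BU1 did not pass (edgeR adjusted p = 0.0815), nor did DLT (0.203).

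Ratios of raw counts within a library do not depend on the scaling between libraries. GSK2 over BZR1, the kinase over its substrate, was 6.64, 10 and 3.23 in the PM libraries and 1.12, 0.466 and 0.688 in the AM libraries. BRD1 over DWARF4, a late over an early step of synthesis, was 0.405, 0.438 and 0.309 in PM and 0.0856, 0.113 and 0.135 in AM. For both ratios all PM libraries lay above all AM libraries, by log2 3.08 and 1.80 on average. BRI1 over BAK1 was 0.929, 0.655 and 1.29 in PM and 1.07, 1.47 and 1.66 in AM, which overlap, with a mean difference of log2 −0.57. Genes of a ratio differ in length, so only the change of a ratio between libraries can be read. In two-sided exact permutation tests p was 0.1, 0.1 and 0.2 for these 3 ratios (0.15, 0.15 and 0.2 after Benjamini-Hochberg adjustment over the 3), and 0.1 is the smallest p that 3 against 3 libraries can give.

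**Figure D3:**
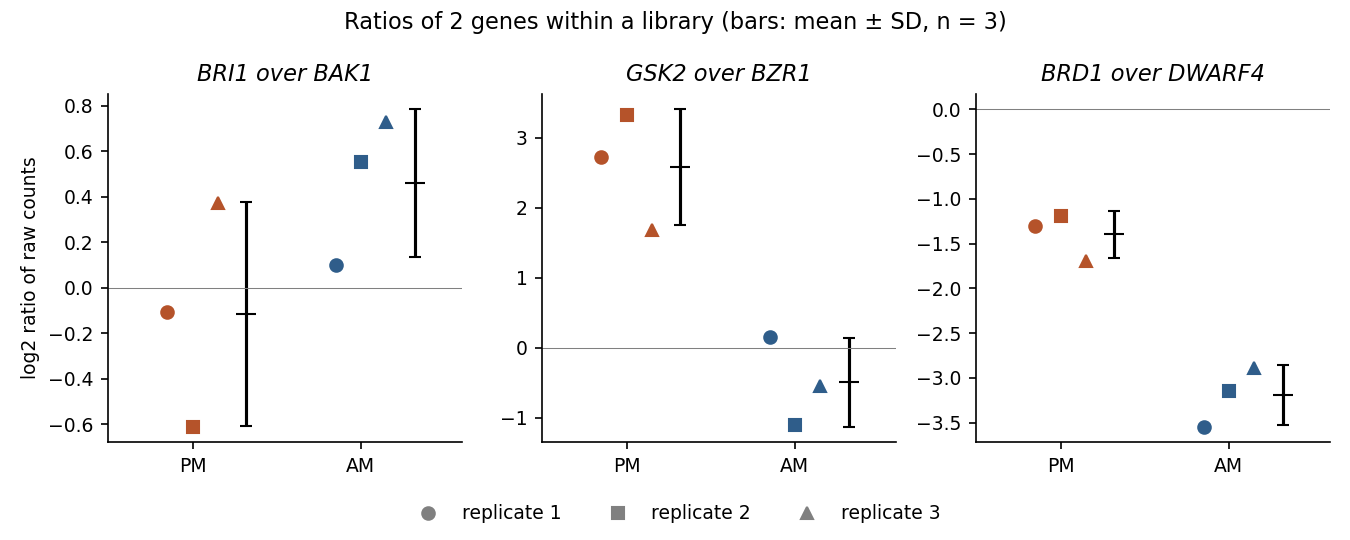
Log2 ratio of the raw counts of 2 genes within each library, PM left and AM right, with symbols for replicates and bars for mean ± SD (n = 3). PM and AM are apart for GSK2 over BZR1 and for BRD1 over DWARF4 and overlap for BRI1 over BAK1.

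D2 and BZR1 varied alike between replicates of the same group. Both were lowest in PM replicate 2 and highest in PM replicate 3, and in AM both were lowest in replicate 1 and highest in replicate 3. CYP90D3, which encodes a hydroxylase related to D2, had the same order, at 3.7, 3.11 and 5.06 CPM in PM and 4.33, 7.91 and 10.1 CPM in AM. The order was not particular to these 3 genes, as the member BRI1 and the listed genes BZR2, IBH1 and MADS55 had it too. Over the 36 brassinosteroid genes tested, members and listed genes together, CYP90D3 had the profile nearest to both D2 (root mean square difference of 0.22 in centred log2 CPM over 6 libraries) and BZR1 (0.20). In PM this order followed library depth, while in AM the deepest library, replicate 2, was in the middle. AM replicate 3 also held the most counts of the root manganese transporter gene NRAMP5, 103 against 5 and 18 in AM replicates 1 and 2 and 2, 4 and 13 in PM replicates 1 to 3. LSI1 and PT2, also of the root list, were lowest in that same library among the AM libraries, at 16 and 0.17 CPM. RCc3, LSI2 and CASP1 had no counts there. The part of root tissue or depth in these replicate differences was not tested.

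**Figure D4:**
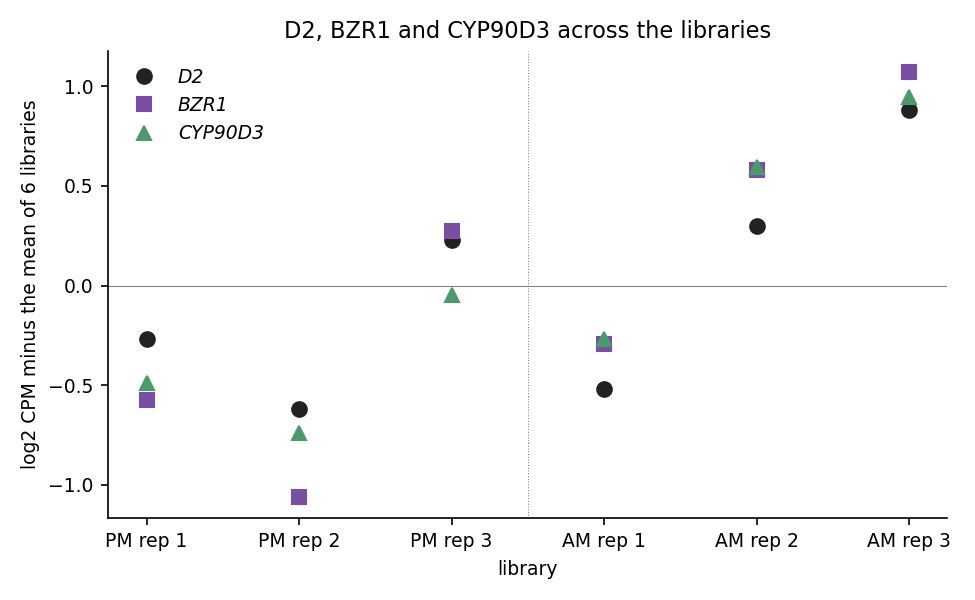
Log2 CPM of D2, BZR1 and CYP90D3 in each library (horizontal axis, PM left and AM right) minus each gene's mean over the 6 libraries. Within each group the 3 genes keep the same order of libraries, with replicate 3 the highest.

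A list of 32 other genes of brassinosteroid synthesis, breakdown and signalling sets the members in their pathway. Of these, 28 were tested, and 9 were higher, 10 lower and 9 did not pass, so 67.9% were called against 55.9% of all tested loci. The median log2 fold change was −0.14. Scaled by library totals only, 15 of the 28 were higher and 4 lower, against 54.5% and 13.5% of all tested loci, so these shares were near those of the whole table. In every fit that left out a library, 5 of the higher and 8 of the lower calls held. The share of called loci in the whole table that held in this way was not computed, so these counts cannot be set against it.

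**Figure D5:**
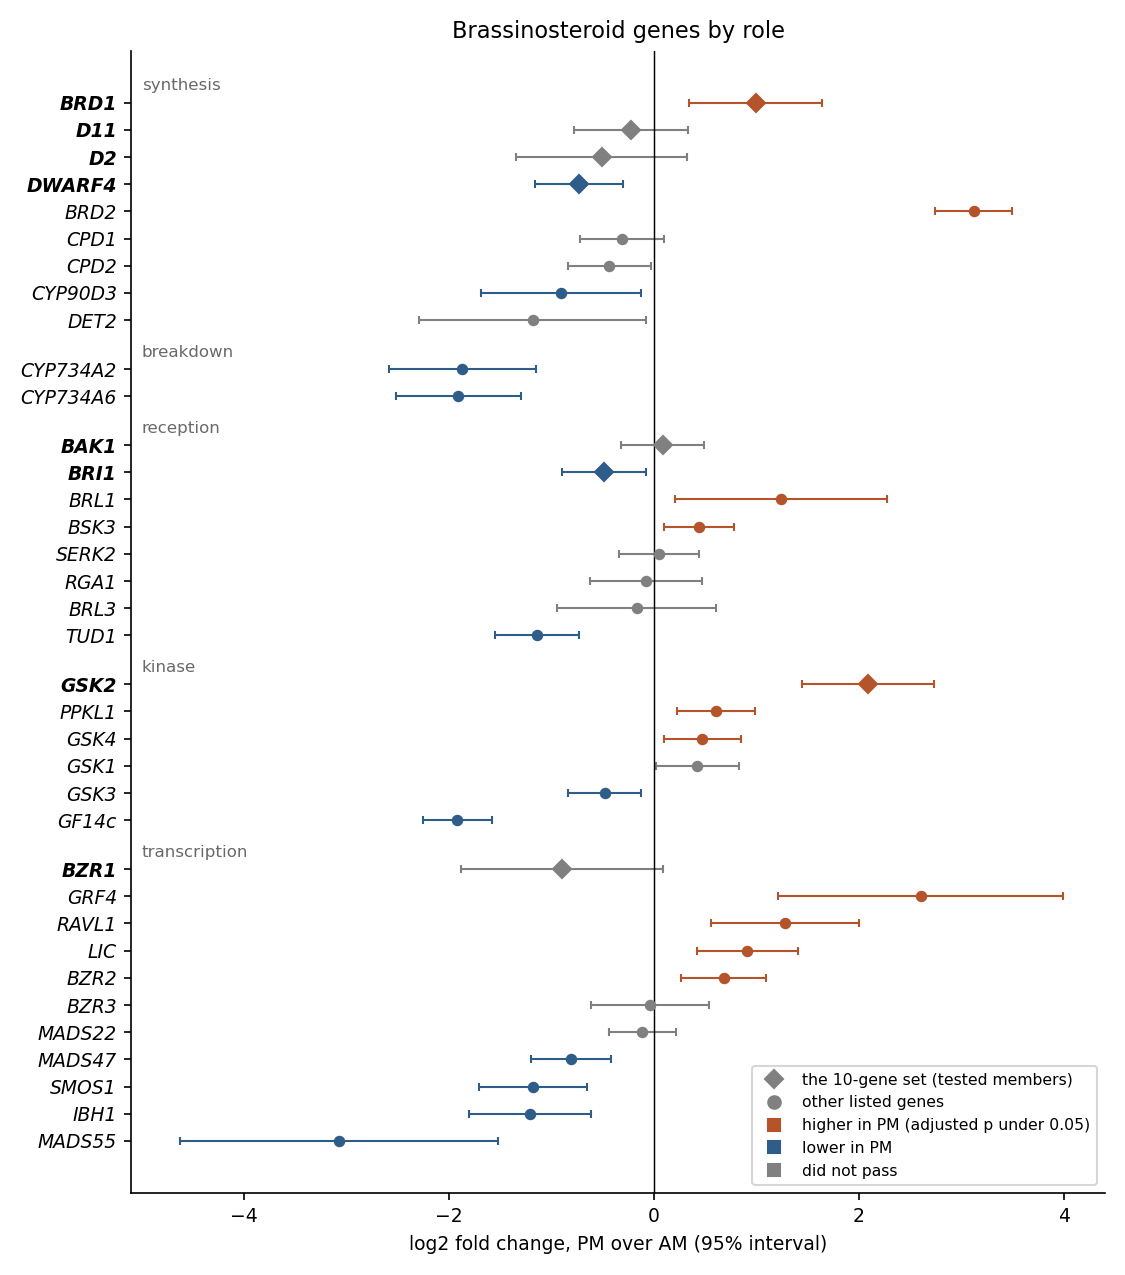
Log2 fold change of PM over AM with its 95% interval (horizontal axis) for the 36 tested brassinosteroid genes, grouped down the page by role; diamonds and bold names are members, and colours show the edgeR call. BRD2 lies highest at 3.12, MADS55 lowest at −3.08, and each role except breakdown holds genes on both sides of 0.

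Among the other 5 synthesis genes 1 was higher and 1 lower, against 28% of all tested loci called in each direction. BRD2 (LOC_Os10g25780), a reductase that feeds sterols into the pathway, had 41.2, 44.1 and 45.8 CPM in PM, against 4.85, 4.7 and 5.53 CPM in AM, with tight replicates in both groups. It rose by log2 3.12 (SE 0.16, edgeR adjusted p = 2.68e-06). That is a larger fold change than any member had, and the profile nearest to GSK2 was that of BRD2, at a distance of 0.55. The other tested members had a nearest gene at 0.14 to 0.27, so the likeness of GSK2 and BRD2 is a loose one. CYP90D3 was lower by a margin that ended without PM replicate 1, PM replicate 2, AM replicate 2 or AM replicate 3 (−0.91, SE 0.34, edgeR adjusted p = 0.0487; −0.63 without AM replicate 3), and its groups overlapped. With library totals alone CYP90D3 was at −0.07 (edgeR adjusted p = 0.869). The steroid reductase gene DET2 (−1.18, edgeR adjusted p = 0.0667) and the P450 genes CPD1 (−0.32, edgeR adjusted p = 0.165) and CPD2 (−0.44, edgeR adjusted p = 0.0641) did not pass. DET2 passed without PM replicate 3 (−1.85, edgeR adjusted p = 0.0153) and with DESeq2 (adjusted p = 0.0397), and its adjusted p ran from 0.0153 to 0.562 over all alternatives. With library totals alone CPD1 and CPD2 were on the other side of 0, at 0.55 and 0.42 (edgeR adjusted p = 0.0262 and 0.1). CPD2 passed as lower without AM replicate 3 (−0.54, edgeR adjusted p = 0.0267). CPD1 and CPD2 are near-identical copies on chromosomes 11 and 12. Records aligned to several places were counted for no gene, so both levels rest on reads placed at a single copy.

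Both tested genes for hormone breakdown were lower in PM, as were 28% of all tested loci. CYP734A6 (LOC_Os01g29150) had 2.78, 3.74 and 4.49 CPM in PM and 10.6, 17.1 and 13.8 CPM in AM (log2 −1.91, SE 0.27, edgeR adjusted p = 0.000392). CYP734A2 (LOC_Os02g11020) had 1.81, 1.55 and 2.03 CPM in PM and 4.27, 8.49 and 7.03 CPM in AM (log2 −1.87, SE 0.31, edgeR adjusted p = 0.00106). The enzymes of this family inactivate brassinosteroids and their precursors. Both genes also passed as lower with library totals alone (CYP734A6 at −1.05, edgeR adjusted p = 0.00503). The third, CYP734A4, was too scarce to be tested, with 6 counts in PM and 52 in AM. With no filter on low counts it was lower (log2 −3.22, edgeR adjusted p = 0.00916), and it also passed as lower in each of the 3 fits leaving out a library in which it was tested.

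Genes around the receptor went both ways, with 2 higher, 1 lower and 3 that did not pass, against 28% of all tested loci called in each direction. TUD1 (LOC_Os03g13010), a ubiquitin ligase that acts with the G protein subunit RGA1 in brassinosteroid responses, averaged 47.5 CPM in PM and 104.8 CPM in AM (log2 −1.14, SE 0.18, edgeR adjusted p = 0.000738), and stood at −0.29 with library totals alone. RGA1 itself was at −0.08 (edgeR adjusted p = 0.802). With library totals alone RGA1 was at 0.76 (edgeR adjusted p = 0.0275), where the median locus stood at log2 0.84. BSK3, a cytoplasmic kinase of a family that acts just below BRI1, was at 0.44 (SE 0.15, edgeR adjusted p = 0.0341), and the receptor homologue gene BRL1, with 53 counts in PM and 19 in AM, at 1.24 (SE 0.45, edgeR adjusted p = 0.0436). The BSK3 call held in 2 and the BRL1 call in 1 of the 6 fits that left out a library. BRL3 and the co-receptor gene SERK2 did not pass, at −0.17 and 0.05, though SERK2 passed as higher with library totals alone (0.89, edgeR adjusted p = 0.00451).

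The other kinase genes of the GSK2 family had fold changes closer to 0 than that of GSK2. GSK4 was at log2 0.47 (SE 0.16, edgeR adjusted p = 0.0352) and GSK3 at −0.48 (SE 0.16, edgeR adjusted p = 0.0275), calls that held in 2 and 1 of the 6 fits that left out a library. With library totals alone GSK3 stood on the other side of 0, at 0.35 (edgeR adjusted p = 0.166). The locus LOC_Os01g10840, listed as GSK1, was at 0.42 (edgeR adjusted p = 0.0726), and passed as higher with library totals alone (1.25, edgeR adjusted p = 0.000886). PPKL1, a phosphatase that regulates grain length, was at 0.60 (SE 0.17, edgeR adjusted p = 0.014). PPKL1 was no longer called without PM replicate 1 or AM replicate 2. GF14c (LOC_Os08g33370), of a family of phosphoprotein-binding proteins that hold BZR1 in the cytoplasm, had 71.3, 72.7 and 65.1 CPM in PM and 261, 263 and 267 CPM in AM. It fell by 1.92 on the log2 scale (SE 0.15, edgeR adjusted p = 1.53e-05), and by 1.07 with library totals alone.

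Of 13 other transcription regulators, 10 were tested, with 4 higher, 4 lower and 2 that did not pass. Over all tested loci 28% were higher and 28% lower. LIC (LOC_Os06g49080), a zinc finger protein that opposes BZR1, rose by log2 0.91 (SE 0.22, edgeR adjusted p = 0.0069). GRF4 (LOC_Os02g47280), a growth-regulating transcription factor whose activity GSK2 inhibits, had 57 counts in PM and 9 in AM (log2 2.60, SE 0.61, edgeR adjusted p = 0.00637). Its AM counts were 1, 7 and 1. Over the removals of a library its log2 fold change ran from 2.20 (without AM replicate 3) to 3.66 (without AM replicate 2). RAVL1, an activator of BRI1 and of synthesis genes, and BZR2, a paralogue of BZR1, were also higher, at 1.28 and 0.68. All 4 passed in each fit that left out a library.

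The 4 lower regulators were SMOS1, MADS47, IBH1 and MADS55. SMOS1 (LOC_Os05g32270), a partner of DLT, was at log2 −1.18 (SE 0.23, edgeR adjusted p = 0.00246), and MADS47 (LOC_Os03g08754) at −0.81 (SE 0.17, edgeR adjusted p = 0.00383). IBH1, a helix-loop-helix repressor of cell elongation, was at −1.21, and MADS55, with 19 counts in PM and 133 in AM, at −3.08. MADS55 had 0 counts in PM replicate 2, and its log2 fold change ran from −3.75 (without PM replicate 3) to −2.67 over the removals of a library, passing in each. With library totals alone SMOS1, MADS47 and IBH1 no longer passed, at −0.34, 0.05 and −0.37, while MADS55 did at −2.27. BZR3 and MADS22 did not pass (−0.04 and −0.11), though both passed as higher with library totals alone (0.79 and 0.73, edgeR adjusted p = 0.04 and 0.00561). BZR4, ILI1 and OFP8 were too scarce to be tested. BZR4 had 59 counts in PM and 20 in AM, ILI1 had 2 in PM and 7 in AM, and OFP8 had 0 in every library.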

How the data were processed

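The authors trimmed reads with Trimmomatic 0.33, aligned them with STAR and counted them per locus with HTSeq 0.6.1 (as listed in the submitters' processing notes), and what they deposited are raw counts. Not given in the sources used here: the STAR version, genome build, annotation and strand setting. Coordinates are therefore left out, and a gene's reads cannot be separated from those of an overlapping or antisense partner. Libraries were made from 2 µg of total RNA with a directional kit, per the labels' protocols. Summary lines that name no gene stayed out of the totals; records aligned to several places were 39.1% to 47.9% of all records in PM and 45.1% to 56.1% in AM, those on no feature 4.36% to 6.26% in PM and 2.92% to 4.25% in AM, and ambiguous ones 0.131% to 0.159% in PM and 0.112% to 0.171% in AM.

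PM was compared with AM over all loci with edgeR 4.0.16 (quasi-likelihood, TMM factors, filterByExpr with a minimum count of 10, R 4.3.3), which was also tested on simulated data. CPM were computed from the counts, and 95% intervals use the fitted SE. Replicates differed by more than sampling noise (a chi-square of 18.7 to 133 per degree of freedom), and each of the 6 libraries counted as a sample. Alternatives were other scalings and filters, DESeq2 1.42.0, limma-voom (limma 3.58.1), a threshold of 0.01, a replicate block and leaving out each library. Members and lists were chosen with earlier results of these data known. All 10 members are named; of the other list up to 2 called genes per direction and role, by smallest p, get full statistics, and the rest their level, fold change or call. The D2, BZR1 and CYP90D3 comparison, MADS and root markers singled out by name were chosen after their values were seen.

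Locus names rest on the lists. RefSeq names of assembly ASM3414082v1 lay on the same chromosome and in the same order for 9 of 10 members and 20 of the 32 other genes. 12 had no symbol match, and GSK1 is the symbol of a gene on another chromosome there. Promoter and protein sequences were not analysed here.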

Additional observations from a re-analysis of the deposited data

How the results depend on the processing

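With the fit described, 2 members were higher and 2 lower in PM. With RLE factors, a mean of at least 1 CPM, DESeq2 or limma-voom the counts were the same. The count of lower members was 1 with upper-quartile factors, no filter or the replicate block, where BRI1 no longer passed. At a threshold of 0.01 it was 0 by edgeR (0 by limma-voom, 1 by DESeq2, and 2 at an unadjusted p of 0.05), with 1 higher. With library totals only it was 0, where BRI1 (0.36), D11 (0.61), D2 (0.32) and DWARF4 (0.10) were on the other side of 0, 11201 loci were higher and 2764 lower, and 15 of the other listed genes were higher and 4 lower. At 0.01, 4 of these were higher and 8 lower, against 20.6% of all tested loci in each direction. Leaving out each library gave 1 to 2 higher and 0 to 3 lower members, and 5 to 9 higher and 8 to 11 lower other genes against 9 and 10 with all libraries, while 45% to 57.7% of all tested loci were called. The 0 came without PM replicate 1 (1 lower at an unadjusted p of 0.05 in edgeR; no other tool was run on those libraries). BAK1 ran from −0.013 (without PM replicate 2) to 0.22 over these removals. The cause of these changes was not tested. The ratios within a library kept their direction with TMM-normalised log2 CPM and without each library. Deviations of same-numbered replicates correlated at −0.06, −0.27 and 0.10. With 3 libraries per group these values cannot tell whether same-numbered libraries were paired. With the replicate block 2 members were higher and 1 lower (BRI1 −0.49, edgeR adjusted p = 0.0863), and 49.3% of loci were called. DLT and BU1 did not reach the low-count filter, and neither passed without it.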
